A study of Mus musculus with 4 samples.

Results

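Windows drawn for the large olfactory receptor clusters of the mouse were examined for islands of H4K16ac, the acetylation of lysine 16 of histone H4, in liver. The libraries analysed here came from 1 mutant (MT) and 1 wild type (WT) mouse, although the study describes more than 1 pair for this assay, and both mice were 3 months old and of a mixed 129/FVB/Black Swiss background. MT mice were Sirt1 knockouts (SIRT1 KO) carrying a deletion within the gene in the germline, so that the loss was not limited to hepatocytes. SIRT1 is an NAD+-dependent deacetylase, and H4K16ac is one of its histone substrates. Chromatin was precipitated with anti-H4K16ac (Santa Cruz, sc-8662-R), and each genotype had 1 ChIP library and 1 input library, 4 libraries in all. The deposited lists hold islands, stretches in which ChIP reads exceeded the scaled input at a false discovery rate of 0.001 (SICER), with the ChIP and input reads in each. The MT list held 28377 islands and the WT list 26227. With 1 ChIP library per genotype there is no replicate check, no test between genotypes was possible, and every interval given covers counting error only. Intervals of density also take islands as placed independently, although islands clump, so that these intervals are too narrow.

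Islands were taken if they overlapped 1 of 3 windows that stand for the clusters in the coordinates of the lists, at 85.0 to 90.0 Mb on chromosome 2, 109.5 to 116.0 Mb on chromosome 7 and 37.5 to 40.3 Mb on chromosome 9. There were 327 such islands of 54604 in both lists, 166 of 28377 in the MT list and 161 of 26227 in the WT list. The chromosome 7 window supplied 319 of them, and the windows of chromosomes 2 and 9 the other 8. The data go against the label of the chromosome 7 window. The windows were drawn for build mm9, whereas the submitters' processing notes name mm8, and the last islands of chromosomes 2 and 13 ended at 181861600 and 120593600, past the ends of these chromosomes in mm9. No annotation of mm8 was used here and no coordinate was converted, so that window is called by its rule, and it is not taken to hold olfactory receptor genes. For the same reason, no annotation places Olfr genes in the windows of chromosomes 2 and 9 on the scale of the lists, and what is said of these windows is said of the coordinates. They are described first.

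Olfactory receptors are G protein-coupled receptors that detect odorants. They form the largest gene family of the mouse, lie in long tandem clusters, and are expressed by olfactory sensory neurons, each of which uses 1 allele of 1 gene. In other tissues, liver included, the clusters are known as silent chromatin, whereas H4K16ac is a mark of open, transcribed chromatin. No expression values were analysed here, so silence itself was not measured.

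The gene table (RefSeq, GRCm38.p6, used only for names and gene order) listed 1428 Olfr genes on 20 chromosomes. The chromosome 2 run held 293 of them, from Olfr987 to Olfr1274, and 222 were protein-coding. Only 3 of its 225 protein-coding genes were no Olfr gene. The run followed Tnks1bp1, Aplnr (the apelin receptor) and Lrrc55, and was followed by Ptprj (a receptor tyrosine phosphatase), Gm46752 and Nup160 (a nuclear pore protein). The large chromosome 9 run held 127 Olfr genes, from Olfr160 to Olfr986, between Panx3 and Zfp202, and 95 of its 98 protein-coding genes were Olfr genes. On chromosome 7, runs of 158 and 80 Olfr genes were separated by 21 other protein-coding genes, among them Smpd1 (acid sphingomyelinase), Hpx (hemopexin, a plasma protein made in liver), Ilk (integrin-linked kinase) and Tpp1 (a lysosomal peptidase). Inside the first of these runs lay 5 beta-globin genes (Hbb-bt to Hbb-y) and 11 genes from Trim6 to Trim30d, most of them Trim genes. The clusters were not poor in genes, with 44.4 protein-coding genes per Mb on chromosome 2 and 39.6 on chromosome 9, against 8.28 over the 20 chromosomes.

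Sequences before the start of 1 Olfr gene per cluster show the kind of promoter Olfr clusters hold, and Nup160, a gene after the chromosome 2 run, is set beside them. Each line gives the 150 bases before the gene's start in RefSeq, 5′ to 3′, with CpG dinucleotides in capitals. Olfr1140 lies at chr2:87746011-87746160 on the plus strand, Olfr623 at chr7:103661319-103661468 on the minus strand, Olfr913 at chr9:38592653-38592802 on the plus strand and Nup160 at chr2:90677065-90677214 on the plus strand. These coordinates are of GRCm38.p6 and are not on the scale of the islands.
Olfr1140: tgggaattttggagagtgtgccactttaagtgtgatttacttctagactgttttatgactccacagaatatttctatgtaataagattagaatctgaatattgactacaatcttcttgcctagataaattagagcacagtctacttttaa
Olfr623: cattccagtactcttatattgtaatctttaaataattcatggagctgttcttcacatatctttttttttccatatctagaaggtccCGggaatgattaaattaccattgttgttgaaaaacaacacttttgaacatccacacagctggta
Olfr913: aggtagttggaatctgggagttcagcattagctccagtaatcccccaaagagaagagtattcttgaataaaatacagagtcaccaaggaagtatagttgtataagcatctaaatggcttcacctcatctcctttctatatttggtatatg
Nup160: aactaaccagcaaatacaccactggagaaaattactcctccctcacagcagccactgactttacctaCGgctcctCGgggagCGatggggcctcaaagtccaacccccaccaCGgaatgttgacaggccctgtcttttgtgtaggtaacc

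Among starts that were not also the start codon, each Olfr gene shown is the one nearest its cluster's median in CpG count, then in GC content. Nup160 is the chromosome 2 neighbour nearest the median CpG count of genes outside the family. It is still CpG-poor for that set, with 6 CpG in a promoter of 300 bases where the median was 15. Olfr623 had 1 CpG in these 150 bases, Olfr1140 and Olfr913 had 0, and Nup160 had 4. Over 300 bases, 250 before and 50 after the start, a promoter was found for 435 protein-coding Olfr genes of the clusters (186 on chromosome 2, 170 on chromosome 7 and 79 on chromosome 9). Their median was 1 CpG and 34.0% GC, against 15 CpG and 57.0% GC in 16542 promoters of genes outside the family. None of the 435 had 10 CpG or more, which 60.4% of the other promoters had, and 35.4% had no CpG at all against 3.58%. The start of 313 of the 435 Olfr genes in the table was the start codon, which held for 5.95% of the other genes, so that many of these windows lie before the coding sequence and not before a transcription start. In the 122 Olfr promoters with another start, the median was again 1 CpG and none had 10 or more.

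**Figure D1:**
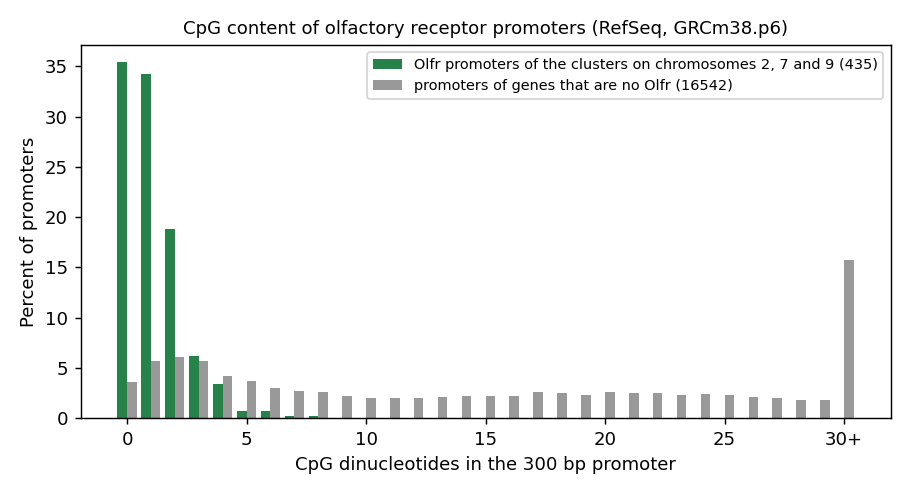
The x axis gives the CpG dinucleotides in a 300 bp promoter and the y axis the percent of promoters, for 435 Olfr promoters of the clusters (green) and 16542 promoters outside the family (grey). The Olfr promoters end at 8 CpG, whereas the others spread past 30.

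Of these promoters 19.1% held TAATTA, the core of many homeodomain sites, against 3.88% outside the family and 4.68% of all 17486 promoters. CCCNNGGG, the core recognised by EBF factors, was held by 2.76% against 16% and 15.3%. In the 122 Olfr promoters that do not begin at the start codon the shares were 16.4% for TAATTA and 7.38% for CCCNNGGG, against 3.58% and 16.5% of such promoters outside the family. Both motifs read the same on either strand and neither overlaps the other, and the difference in GC content stands beside both shares. Both factor families act on olfactory receptor genes in olfactory neurons, and a match here is a run of letters, not a bound site.

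The chromosome 2 window was nearly free of H4K16ac islands in both livers. In 5 Mb the MT list had 0 islands, which allows a density of up to 0.738 per Mb (exact 95% Poisson limit), and the WT list had 2, or 0.40 per Mb (0.0484 to 1.44). The flanking 5 Mb on each side held 154 MT islands, 15.4 per Mb (13.1 to 18.0), and 150 WT islands, 15 per Mb (12.7 to 17.6). The density in the window was thus 0 of that in the flanks for MT, with an upper exact limit of 0.0485, and 0.0267 for WT (0.0032 to 0.0980). Against the rest of the genome, at 11.2 MT and 10.3 WT islands per Mb, the upper limit was 0.0661 for MT, and the WT ratio was 0.0388 (0.0047 to 0.140). Islands covered 0% of the window in MT and 0.068% in WT, against 5.11% and 4.36% of the flanks. The flanks were themselves uneven. The left flank had 9.40 MT and 7.80 WT islands per Mb and the right flank 21.4 and 22.2, and the window was below each of them in both lists.

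The nearest islands outside the window ended and began at the same places in both livers. The last island before the window ended at 84906800 in each list, 93.2 kb before the window, and the first island after it began at 90288401 in each list, 288 kb beyond. Right before the window, 1 Mb held 39 MT and 29 WT islands, and the 1 Mb after it held 30 and 21. Between these outer islands the MT list had no island over 5.38 Mb, which ranked 29 among 28357 distances between neighbouring islands. The longest such stretch that touched the window in the WT list was 2.75 Mb, from 85054401 to 87807600, which ranked 124 of 26207.

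The WT list had 2 islands in the chromosome 2 window, and neither had an MT counterpart. The first, chr2:85053201-85054400, was 1.2 kb long and lay 53.2 kb inside the window. It held 45 ChIP and 20 input reads, and the ratio of ChIP to scaled input was 2.04 (exact 95% interval 1.18 to 3.66) at a false discovery rate of 1.55e-05, and 67.5% of the WT list had a smaller rate. The nearest MT island was 146 kb away. The second, chr2:87807601-87809800, was 2.2 kb long and held 46 ChIP and 15 input reads, a ratio of 2.79 (1.53 to 5.37). This is the median length of the WT list, and its ratio was above 81.4% of that list. Its false discovery rate was 3.64e-09, smaller rates being found in 36.1% of the list, and the nearest MT island was 2479 kb away. A count of 2 against 0 lies within the counting error of both lists, and with 1 mouse per genotype nothing can be said of a genotype difference here.

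The chromosome 9 window was poor in islands as well, though not as empty. Each list had 3 islands in 2.8 Mb, 1.07 per Mb (0.221 to 3.13), where the flanks had 12.4 MT (10.3 to 14.8) and 10.8 WT (8.86 to 13.0). The window was at 0.0864 of the flanks in MT (0.0176 to 0.258) and at 0.0992 in WT (0.0201 to 0.298). Both intervals, which ignore the clumping of islands, end below 1. The same holds against the left flank alone, at 0.114 (0.0227 to 0.354) and 0.145 (0.0286 to 0.457). Islands covered 0.493% of the window in MT and 0.421% in WT, against 4.75% and 3.22% of the flanks. The last island before it ended at 37407400 in each list, and the first after it began at 40380601 in MT and 40381601 in WT. The island-free stretches inside were 1.60 Mb in MT and 1.47 Mb in WT.

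**Figure D2:**
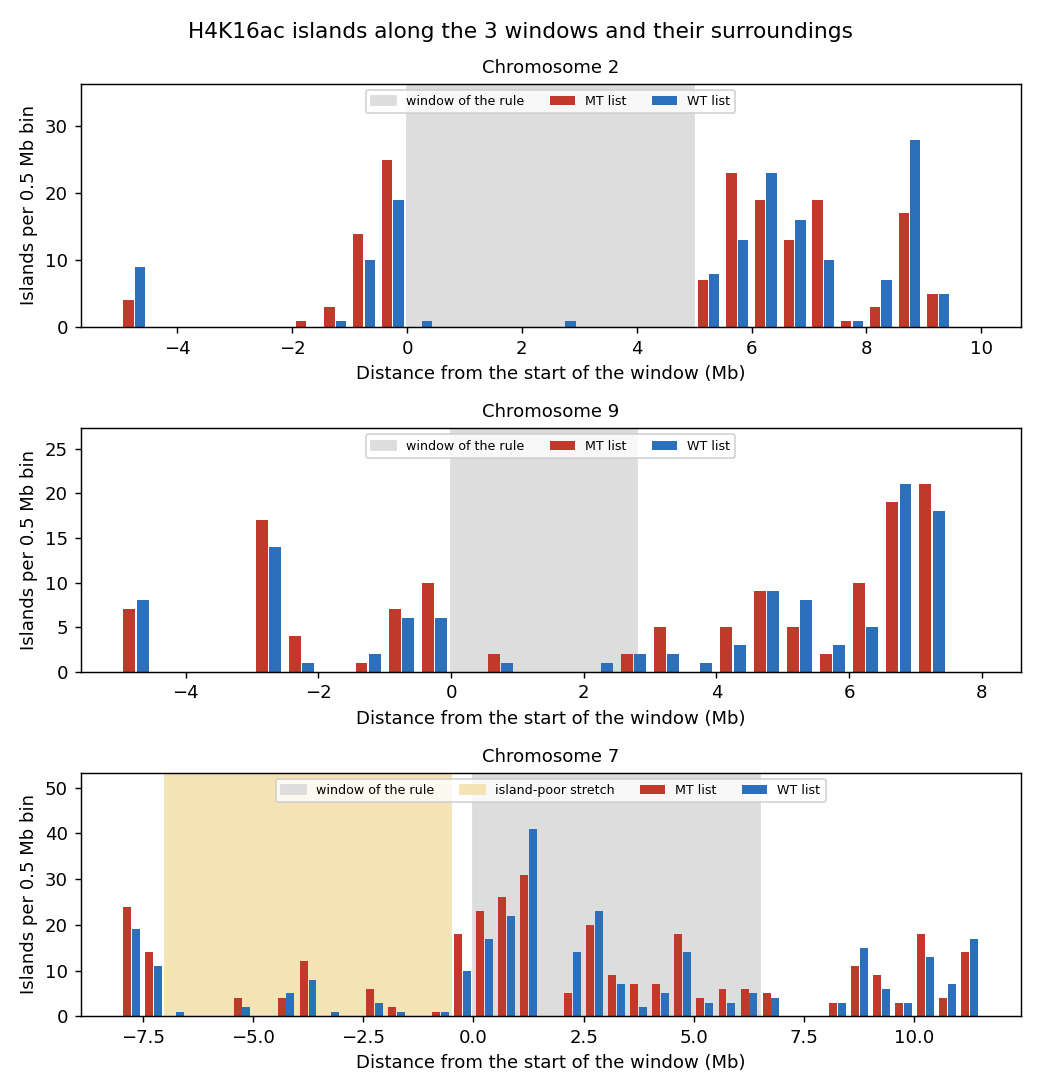
Each bar is the number of islands in a 0.5 Mb bin (y axis) against the distance in Mb from the start of a window (x axis), for the MT (red) and WT (blue) lists. The grey windows of chromosomes 2 and 9 hold at most 2 islands of a list in any bin, whereas the grey chromosome 7 window is dense and the pale stretch before it is sparse.

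Of the 6 chromosome 9 islands, 4 lay at the same sites in both livers. At the first site the MT island chr9:38469201-38470800 held 67 ChIP and 33 input reads, a ratio of 1.92 (1.25 to 3.01), and the WT island chr9:38469401-38471400 held 62 and 30, a ratio of 1.88 (1.2 to 3.01). At the second site, near the end of the window, the MT island chr9:40070601-40081000 held 362 ChIP and 203 input reads, a ratio of 1.69 (1.42 to 2.01), and the WT island chr9:40069601-40077600 held 264 and 155, a ratio of 1.55 (1.26 to 1.90). The livers thus had overlapping intervals at both sites. The second site was long for the lists, with the MT island at 10.4 kb longer than 98.3% of MT islands and the WT island at 8.0 kb longer than 97.6% of WT islands, but low in ratio, above only 19.7% and 5.62% of them. Its MT false discovery rate was 2.22e-19 and its WT rate 9.07e-11, since both rest on many reads.

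The remaining chromosome 9 islands had no counterpart. The MT island chr9:38472801-38474600 held 50 ChIP and 24 input reads, a ratio of 1.97 (1.19 to 3.36), and lay 1.4 kb from the first shared site's WT island. The WT island chr9:39941201-39943000 held 43 and 17, a ratio of 2.30 (1.28 to 4.30), and lay 128 kb from the nearest MT island. Over the windows of chromosomes 2 and 9, 2 of 3 MT islands and 2 of 5 WT islands overlapped an island of the other list, where 56.5% of MT and 64.3% of WT islands did so over the whole lists. Counts this small do not set the windows apart from the lists in this respect.

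Where islands were called in the windows of chromosomes 2 and 9, their ChIP over scaled input was not far from that elsewhere. Pooled over these islands it was 1.74 in MT (1.50 to 2.04) and 1.76 in WT (1.50 to 2.07), against 2.13 in both lists in the flanks and 2.05 and 2.09 in the rest of the genome, just above the upper limits of both. A single long island on chromosome 9 set both values, with 75.6% of the MT and 57.4% of the WT ChIP reads. Without it the ratio was 1.94 in MT (1.40 to 2.72) and 2.17 in WT (1.67 to 2.85), and neither interval excludes the genome value. The chromosome 9 islands had 18.8 MT and 17.1 WT input reads per kb, against 15.4 and 14.1 over the lists. The long island alone had 19.5 and 19.4. The chromosome 2 islands of WT had 10.3, below the list. The windows thus differed from their surroundings in how many islands they held, and the ratio within those called rests on 3 and 5 islands.

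**Figure D3:**
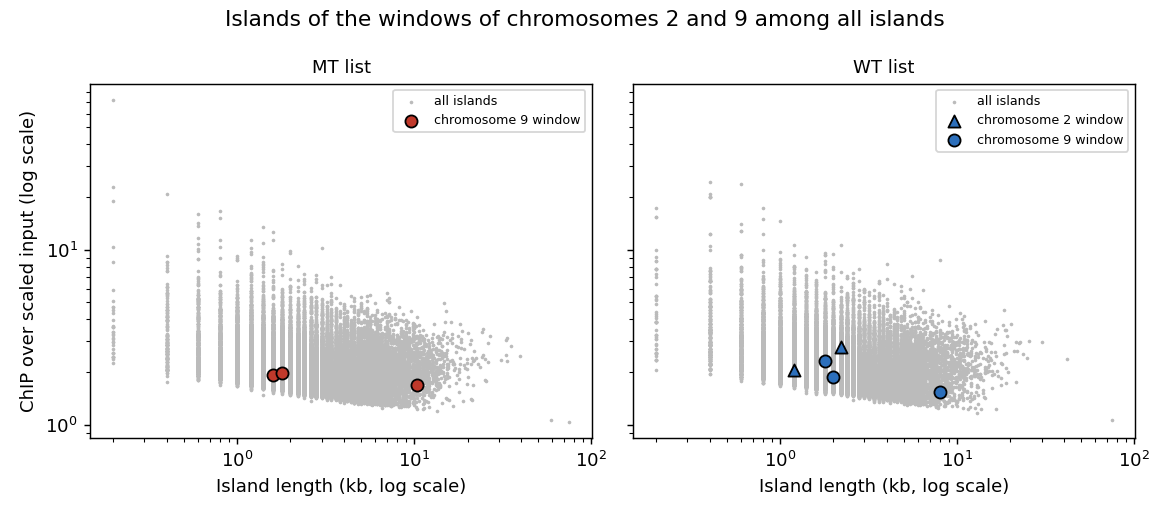
Each grey point is an island, with its length in kb on the x axis and its ChIP over scaled input on the y axis, both on log scales, for the MT list (left) and the WT list (right). The islands of the chromosome 2 window (triangles) and chromosome 9 window (circles) lie within the cloud, with ratios of 1.55 to 2.79.

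Together, the 7.8 Mb of both windows had 0.385 MT islands per Mb (0.0793 to 1.12) and 0.641 WT islands per Mb (0.208 to 1.50). Their flanks had 13.9 and 12.9, which is 36.1 times denser in MT (12.2 to 176) and 20.1 times denser in WT (8.51 to 62.5). These intervals ignore the clumping of islands and are too narrow. Islands covered 0.177% of the windows in MT and 0.195% in WT, against 4.93% and 3.79% of the flanks. The density intervals of the 2 livers overlap, which is no test between genotypes. With 3 and 5 islands from 1 mouse each, nothing can be said of a genotype difference in these windows.

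Stretches without islands were common in this genome, which sets the background for these counts. Of 5071 bins of 0.5 Mb, 39.7% held no MT island and 39.0% no WT island, and 36.1% held neither. The fullest bins held 56 MT and 57 WT islands, so that islands clump. In the chromosome 2 window 10 of 10 bins had no MT island and 8 of 10 no WT island. Among the 5 whole bins of the chromosome 9 window, 4 had no MT island and 3 no WT island. Over all 5 Mb windows of the genome, moved in steps of 0.5 Mb, 4.23% held as few MT islands as the chromosome 2 window and 6.77% as few WT islands. For the chromosome 9 window the shares were 16.2% and 16.4% of windows of its length. These shares describe the genome and are no test, since neighbouring windows overlap. There were 463 island-free stretches of over 1 Mb in each list, the longest being 15.9 Mb in MT and 18.5 Mb in WT.

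**Figure D4:**
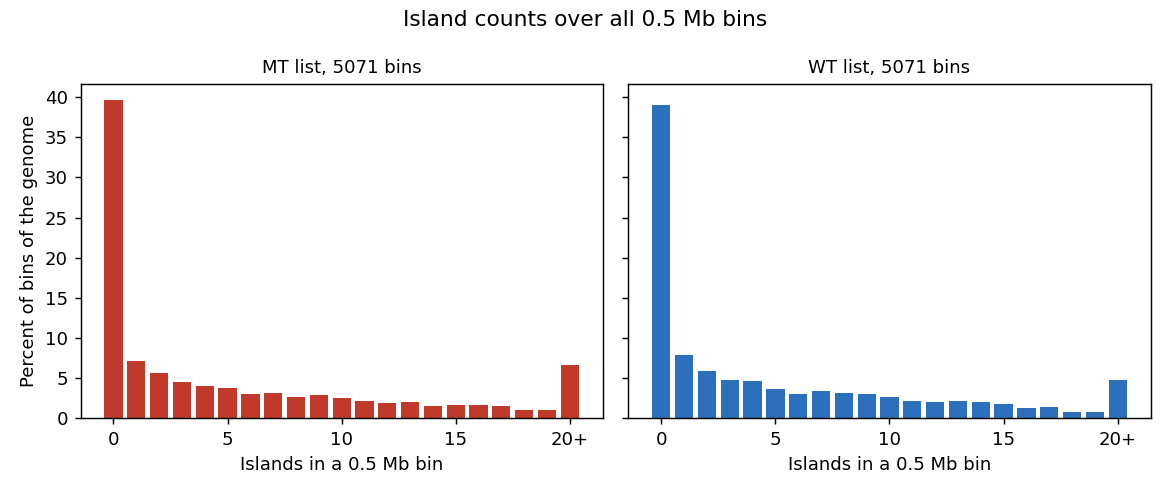
The x axis gives the number of islands in a 0.5 Mb bin and the y axis the percent of the 5071 bins of the genome, for the MT (left) and WT (right) lists, with bins of 20 or more as 1 bar. Bins without islands make up 39.7% and 39.0%, and all 10 bins of the chromosome 2 window are of this kind in MT.

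The chromosome 7 window of the rule was rich in islands. It held 163 MT islands in 6.5 Mb, 25.1 per Mb (21.4 to 29.2), and 156 WT islands, 24.0 per Mb (20.4 to 28.1). This was 2.28 times its flanks in MT (1.78 to 2.93) and 2.45 times in WT (1.89 to 3.19). The left flank lies mostly in an island-poor stretch described below, and against it alone the ratios were 2.92 and 4.0. Against the right flank alone they were 1.87 (1.40 to 2.53) and 1.76 (1.32 to 2.38). Islands covered 7.46% of the window in MT and 6.44% in WT. Only 1 of its 13 bins was empty in each list, and 96.9% of genome windows of this length held as few MT islands. The pooled ChIP over scaled input was 1.99 in MT (1.94 to 2.05) and 2.01 in WT (1.95 to 2.07). The share of islands that overlapped the other list was 60.7% of MT (Wilson 95% interval 53.1 to 67.9) and 67.3% of WT (59.6 to 74.2), near the 56.5% and 64.3% of the whole lists. Merging both lists gave 203 regions, of which 88 had islands of both, 64 of MT only and 51 of WT only.

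The most deeply read region of the chromosome 7 window with islands of both lists was chr7:110665401-110677400, with 448 MT and 446 WT ChIP reads and ratios of 1.82 (1.55 to 2.14) and 2.22 (1.86 to 2.65). The highest ratio among the 6 most deeply read was at chr7:110905401-110916800, 3.74 in MT (2.95 to 4.80) and 3.42 in WT (2.69 to 4.38). The islands with the highest ratio were chr7:109913801-109916600 in MT, at 5.38 (3.58 to 8.35), and chr7:110894201-110897200 in WT, at 5.95 (3.13 to 12.4). Both overlapped an island of the other list. Each was above 99.3% of its list. The highest ratio in the windows of chromosomes 2 and 9 was 2.79. These windows held only 3 MT and 5 WT islands against 163 and 156, too few for the highest ratios to be compared.

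An island-poor stretch of the same length ended 0.5 Mb before the chromosome 7 window, from 102.5 to 109.0 Mb. It was chosen after its values were seen, and they are given as a description only. It held 29 MT islands, 4.46 per Mb (2.99 to 6.41), and 22 WT islands, 3.38 per Mb (2.12 to 5.12), at 0.160 of its own flanks in MT and 0.130 in WT. Its right flank lies mostly in the dense chromosome 7 window, and against the rest of the genome the ratios were 0.40 (0.268 to 0.574) and 0.328 (0.206 to 0.497). As few islands were held by 19.0% of genome windows of its length in MT and 15.8% in WT. Islands covered 1.3% and 0.969% of it. The stretch makes up most of the left flank of the chromosome 7 window, where densities were 8.6 and 6.0 per Mb. Of its 13 bins, 7 had no MT island (53.8%, against 39.7% over all bins) and 5 no WT island (38.5%, against 39.0%), so that the WT share was at the background.

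The islands of this stretch stood in 5 groups with long gaps between them. From 105.27 to 106.0 Mb there were 16 MT and 14 WT islands, which is the largest group. From 107.22 to 107.52 Mb there were 8 and 4, from 104.1 to 104.38 Mb 4 and 2, at 108.73 Mb 1 in each list, and at 102.55 Mb 0 and 1. The gene order in RefSeq has breaks of its own, with the beta-globin and Trim genes inside the first Olfr run. The 21 genes with Ilk and Tpp1 lie between the runs, and a further break holds 6 genes from Rbmxl2 to Ovch2. Which island group falls on which genes was not established, since the gene table is of another build.

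Within the stretch, the pooled ChIP over scaled input was 1.86 in MT (1.74 to 1.99) and 1.79 in WT (1.65 to 1.93), and 13 of 29 MT and 13 of 22 WT islands overlapped the other list. The longest was chr7:107387401-107397400 in MT, 10 kb with 303 ChIP and 143 input reads, where WT had a 1.6 kb island, chr7:107387601-107389200, with 47 and 16. In WT the longest was chr7:105676201-105686600, 10.4 kb with 277 and 124 reads, and the MT islands in that region had 244 and 124. The highest ratio was 4.12 (2.28 to 7.99) at the MT island chr7:104117001-104119000, which had no WT counterpart, and 3.53 (2.25 to 5.71) in WT at chr7:105472601-105475400, which had one in MT.

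**Figure D5:**
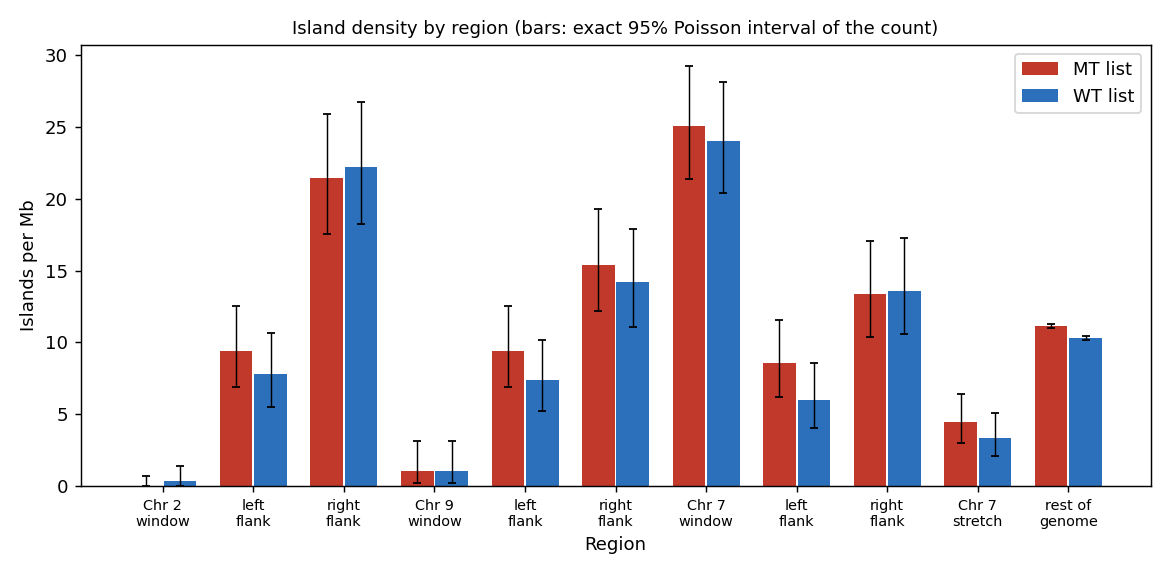
Bars give islands per Mb (y axis) in each window, each 5 Mb flank, the chromosome 7 stretch and the rest of the genome for the MT (red) and WT (blue) lists, and lines give the exact 95% Poisson interval of the count. The chromosome 2 and 9 windows are at 0 to 1.07 per Mb, below both of their flanks, and the chromosome 7 window is at 25.1 and 24.0.

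Pooling the 3 windows of the rule hid this contrast. Their density was 0.898 of the flanks in MT (0.744 to 1.08) and 0.949 in WT (0.783 to 1.15), and both intervals hold 1. Against the rest of the genome the pooled ratios were 1.04 (0.888 to 1.21) and 1.09 (0.929 to 1.27). The pooled ChIP over scaled input was 1.99 in MT and 2.0 in WT. These pooled values come almost wholly from the chromosome 7 window, which held 163 of 166 MT and 156 of 161 WT islands.

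The lists do not give reads outside islands. Chromatin without H4K16ac and sequence in which few reads can be placed once, as in families of similar genes, cannot be told apart from them, and a missing island is not a measured level of 0.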

How the data were processed

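H4K16ac ChIP and input libraries of 1 MT and 1 WT liver, crosslinked with formaldehyde, were analysed here. The study describes more than 1 pair of mice for this assay. Per the labels and the study's methods, the authors aligned reads with Bowtie 0.12.7 (mm8 in the submitters' processing notes), removed duplicates and called islands with SICER 1.03 in windows of 200 bp with gaps of 400 bp, at a false discovery rate of 0.001. The deposited lists give read counts of ChIP and input per island, p-values and false discovery rates, and a fold, the ratio of ChIP reads to the input reads scaled by library size. Library totals are not in the lists. The ChIP to input library ratio recovered from the folds was 1.06 in MT and 1.10 in WT. Median islands held 74 MT or 63 WT ChIP reads and 35 or 27 input reads, which sets their precision.

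Islands overlapping a window by at least 1 bp were counted (pandas 2.3.3 and numpy 2.4.6 under Python 3.11.15, with intervals from scipy 1.17.1 and figures from matplotlib 3.10.9) and compared with 5 Mb flanks and with the rest of the genome, 2525.6 Mb without the windows and the chromosome 7 stretch. Densities have exact Poisson intervals, density ratios exact conditional intervals, ChIP over scaled input exact binomial intervals, and shares Wilson intervals, all at 95%. Reads are not independent molecules, so these cover counting error only. Islands clump, so that the density intervals are too narrow. Islands were named by rule. In a window with up to 6 islands all were named. Otherwise the 3 with the most ChIP reads and the 3 with the highest fold were considered, along with up to 6 regions with islands of both lists and the longest island-free stretch, and those described are a selection of these. The windows and lists were chosen with earlier results of these data known. The scripts were tested on simulated data in which islands were placed independently. Olfr runs were split at gaps of 1 Mb, and the largest run of 50 genes or more was kept with any within 2 Mb of it. Promoter sequences are from RefSeq (GRCm38.p6), 1 per protein-coding gene. Alternatives were stricter island thresholds, other flanks, edges and overlap rules, autosomes alone and windows left out.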

Additional observations from a re-analysis of the deposited data

How the results depend on the processing

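For the pooled 3 windows, 76 values were recomputed under other settings, of which 41 stayed within the interval of the reported value on the same side of 1. Every value is a description, with no test behind it. The windows of chromosomes 2 and 9 alone gave density ratios to the flanks of 0.0277 in MT and 0.0497 in WT, to the genome of 0.0344 and 0.0621, below 1 instead of above it, a covered share of 0.177% and 0.195%, ChIP over scaled input of 1.74 and 1.76, and an overlapping share of 40% in WT. With the chromosome 7 stretch in place of the window, chosen after seeing the data, these were 0.121 and 0.109, 0.200 and 0.182, again below 1, 0.687% and 0.547%, 1.84 and 1.78, and 46.9% and 55.6%. In both cases the setting changes which regions are counted. A false discovery rate of at most 1e-05 gave covered shares of 2.51% in MT and 2.10% in WT and ChIP over scaled input of 2.16 and 2.20. Folds of at least 2 gave covered shares of 1.50% and 1.31%, ChIP over scaled input of 2.59 in both, overlapping shares of 44.6% and 53.8%, and a WT density ratio to the genome of 0.949. The WT density ratio to the flanks was 1.0 with at least 50 ChIP reads and 1.01 with windows trimmed by 0.5 Mb at each edge, and the MT ratio to the genome was 0.982 on autosomes. The intervals of these 3 and of the reported values hold 1. With at least 50 ChIP reads the WT ratio to the genome was 1.25 (1.04 to 1.49), an interval that no longer holds 1. Where an overlap had to span 50% or more of each island, 38% of MT and 39.1% of WT islands were shared.

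For the windows of chromosomes 2 and 9, leaving out the longest island moved ChIP over scaled input to 1.94 in MT and 2.17 in WT. Folds of at least 2 left 0 MT islands there, and at least 50 ChIP reads left 0 WT islands on chromosome 2. No replicate could be left out, and no paired analysis was possible because each genotype had 1 ChIP and 1 input library. The lists limit what depth can show, since islands below the threshold are not listed.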
